A study of Saccharomyces cerevisiae with 12 samples.

Results

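Deletion of SNF2 in yeast grown in minimal medium was profiled on 3 of the series' 12 spotted arrays, which carry RNA of a pair of strains in separate channels. Each array set RNA of strain FY31, which carries the snf2 deletion, against that of FY2, the wild type, and the arrays were chosen by their labels as experiments 1, 2 and 3 of snf2 in minimal medium. The other 9 arrays held FY31 in the rich medium YPD (3 arrays) and YPS1, a strain with a swi1 deletion, in minimal and in rich medium (3 arrays each), all against FY2. FY31 is 1 strain, and neither its marker genes nor its mating type are given in the labels. Experiments 2 and 3 shared 1 platform of 8832 probes and were tested. Experiment 1 lay on another platform of 6384 probes and served as a check of sign. Measured values covered 6006 probes on experiment 1, 8192 on experiment 2 and 7835 on experiment 3. Nothing in the labels tells whether each array had its own culture, so a p-value here reflects array-to-array spread, which may be technical, and the number of arrays limits the precision.

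Snf/Swi is a large complex that uses the energy of ATP to slide or evict nucleosomes, the histone spools around which DNA is wound. Snf2 is its ATPase, and Swi1 is a subunit that contacts DNA and activators. Activators recruit the complex to promoters, and yeast lacking it is known for poor growth on sugars other than glucose, low transcription of the mating-type switch gene HO and the invertase gene SUC2, and a need for inositol.

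Values are log2 ratios of the snf2 mutant over wild type, centred on the median of each array, so a change is relative to the median gene. A value of 1 is a 2-fold difference. The direction is likely and not stated in the labels: no dyes are named, FY2 fills channel 2 and stands first in the descriptions, and the deposited sign was turned. With the opposite reading, every gene given as higher would be lower. The deleted gene does not settle it. SNF2 read 0.43, 0.79 and 1.00 on experiments 1, 2 and 3, higher on all 3 arrays labelled snf2 (0.89 ± 0.15, adjusted p = 0.00467, a call lost without experiment 3, where adjusted p = 0.0673). In rich medium SNF2 was also higher on experiments 2 and 3 of the snf2 mutant, at 0.69 and 0.65 (mean 0.67, adjusted p = 0.0104), and read -0.68 on experiment 1. On the swi1 arrays in minimal medium SNF2 stood at -0.05 ± 0.15. The labels give neither the deleted stretch of SNF2 nor the stretch its probe covers, so the probe may check nothing. SER3, whose transcription Snf/Swi is known to repress, was higher, and PHO84, which is known to need the complex, was lower, while SNF2 itself was higher in the strain labelled as lacking it. The list of reported Snf/Swi-dependent genes, which holds SER3 and PHO84, was mixed. Of 10 tested, 5 were lower, 1 was higher and 4 were not called. HO and SUC2 were not called in minimal medium and were higher in rich medium, at 0.75 and 0.58 (limma adjusted p = 0.00173 and 0.00381). The direction was not tested with these genes.

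Of 5574 genes on the platform, 5307 were measured on both arrays and tested. limma called 1550 of them at an adjusted p under 0.05, which is 29.2%: 678 higher (12.8%) and 872 lower (16.4%). Counts of called genes in the lists below are to be set beside these shares. Large changes ran mostly downward. Falls of at least 2-fold numbered 196 (3.69%), against 55 rises of that size (1.04%), and falls of at least 4-fold numbered 67 (1.26%), against 1 rise (0.0188%). All 16 genes changed by at least 8-fold (0.301%) were lower. They include the near-identical copies ASP3-1, ASP3-2, ASP3-3 and ASP3-4, which count as 1 signal. The median gene stood at 0.01, with an interquartile range from -0.25 to 0.23. The count of calls rests on having both arrays: it was 771 without experiment 2 and 704 without experiment 3, in a fit that takes the lone array to vary like the other groups. In what follows, "without either array" means in each of these fits. Genes at least 2-fold lower and called numbered 224 without either array. Without centring, 920 genes were higher and 769 lower. A fit with experiment 1 added and its platform as a random block, called "over 12 arrays" below, gave 351 calls, 88 higher and 263 lower.

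Experiment 1 gave the same sign for 1188 of the 1438 called genes it measured (82.6%), against 60.5% of genes not called. The agreement was closer for falls than for rises, at 705 of 815 (86.5%) against 483 of 623 (77.5%), and it grew with size among the falls: 41 of 42 genes with a mean between -2 and -3, and 16 of 16 at -3 or below, were also lower on experiment 1. Across genes, experiments 2 and 3 correlated at r = 0.831 (5307 genes), while experiment 1 correlated at 0.518 with experiment 2 (5152 genes) and at 0.583 with experiment 3 (4994 genes). Genes on an array are not independent replicates. A few called genes were far off on experiment 1. PPM2, a tRNA methyltransferase gene, read 5.55 on experiment 1, against -0.40 and -0.43 on experiments 2 and 3. GSY1, which encodes a glycogen synthase, read -2.72 on experiment 1, against 0.39 and 0.48. These 2 were chosen after their values were seen, among the widest gaps.

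**Figure D1:**
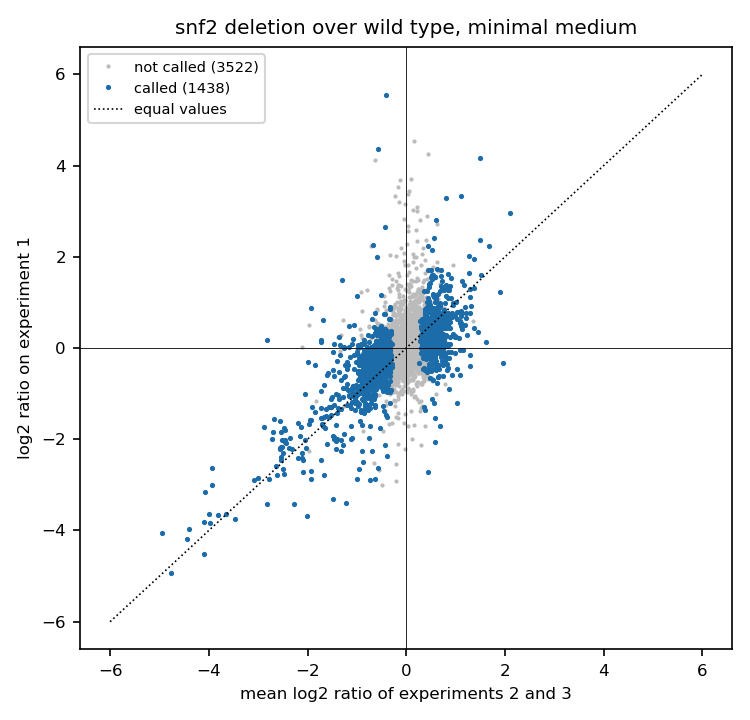
Each point is a gene, with the mean log2 ratio of experiments 2 and 3 (snf2 mutant over wild type, minimal medium) on the x axis and the log2 ratio on experiment 1 on the y axis. Blue points are called genes, grey points are genes not called and the dotted line marks equal values; 82.6% of the called genes had the same sign on both axes.

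The deepest fall was that of ZEO1, a protein of the cell periphery that acts on the cell wall integrity pathway. It read -4.05, -4.69 and -5.22 on experiments 1, 2 and 3, and its mean of experiments 2 and 3 was -4.95 ± 0.13 (moderated SE, n = 2 arrays, adjusted p = 3.92e-06), which is 31.0-fold lower. SAG1, the alpha-agglutinin by which alpha cells stick to their mates, read -4.93, -4.81 and -4.70. DAL5, the allantoate permease, read -4.18, -4.43 and -4.44. All 3 arrays thus put these genes more than 16-fold down, and likewise HSP12, given below. QDR2, a plasma membrane exporter of drugs and cations, read -3.98, -4.43 and -4.36. HSP12, a small membrane-associated stress protein, read -4.52, -4.07 and -4.13. YRO2, a plasma membrane protein, read -3.84, -4.00 and -3.95, and TIP1, a mannoprotein of the cell wall, read -3.00, -4.08 and -3.79. The 12 deepest falls further held MF(ALPHA)2, a gene for the alpha-factor pheromone, and the asparaginase copies ASP3-1, ASP3-2, ASP3-3 and ASP3-4, at means between -4.10 and -3.82. The ASP3 copies are near-identical, so their probes cannot tell them apart and count as 1 signal. Over 12 arrays limma no longer called DAL5 (adjusted p = 0.0923). The error of that fit is pooled over all groups, and the snf2 mutant in rich medium read 8.04 for DAL5 on experiment 1 and 1.355 on experiment 2. The part of these arrays in the lost call was not tested. All 12 calls held without experiment 2 and without experiment 3.

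The rises were smaller. The 12 largest that had the same sign on all 3 arrays are given here. Called rises of at least their size further included THI11, THI5 and THI13, which had no value on experiment 1, and FPK1 at 1.96, a kinase gene that read -0.33 on experiment 1 and was named after its value was seen. BNA2, tryptophan dioxygenase and first enzyme of NAD synthesis from tryptophan, was highest of all, at 2.96, 1.91 and 2.30 on experiments 1, 2 and 3 (2.10 ± 0.16, adjusted p = 0.000128). Its reading frame overlaps YJR079W, and the signal of the pair may be shared. RTS3, tied to protein phosphatase 2A, read 1.23, 1.86 and 1.95. ATG39, a receptor for autophagy of the nuclear envelope, read 2.24, 1.65 and 1.72. SER3, phosphoglycerate dehydrogenase of serine synthesis, read 1.59, 1.66 and 1.37. These 4 genes were at least 2-fold higher on every array, and so were AQY3, MMP1, GNP1 and COS12, given below. AQY3, a channel protein of the aquaporin family, read 2.38, 1.58 and 1.39. MDH2, the cytosolic malate dehydrogenase of gluconeogenesis, read 0.44, 1.38 and 1.38. Amino acid permeases among these 12 were MMP1, GNP1 and LYP1: MMP1 for S-methylmethionine stood at 1.37, GNP1 for glutamine at 1.37 and LYP1 for lysine at 1.31. The remaining 3 rises were uneven across platforms. EMI2, a hexokinase-like gene, was near 0 on experiment 1 (0.14) against 1.69 and 1.53. YGR050C read 0.35 against 1.46 and 1.45, and COS12 read 4.16 against 1.55 and 1.42. Over 12 arrays limma no longer called EMI2 (adjusted p = 0.206) or LYP1 (adjusted p = 0.0563). All 12 rises kept their call without experiment 2 and without experiment 3.

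**Figure D2:**
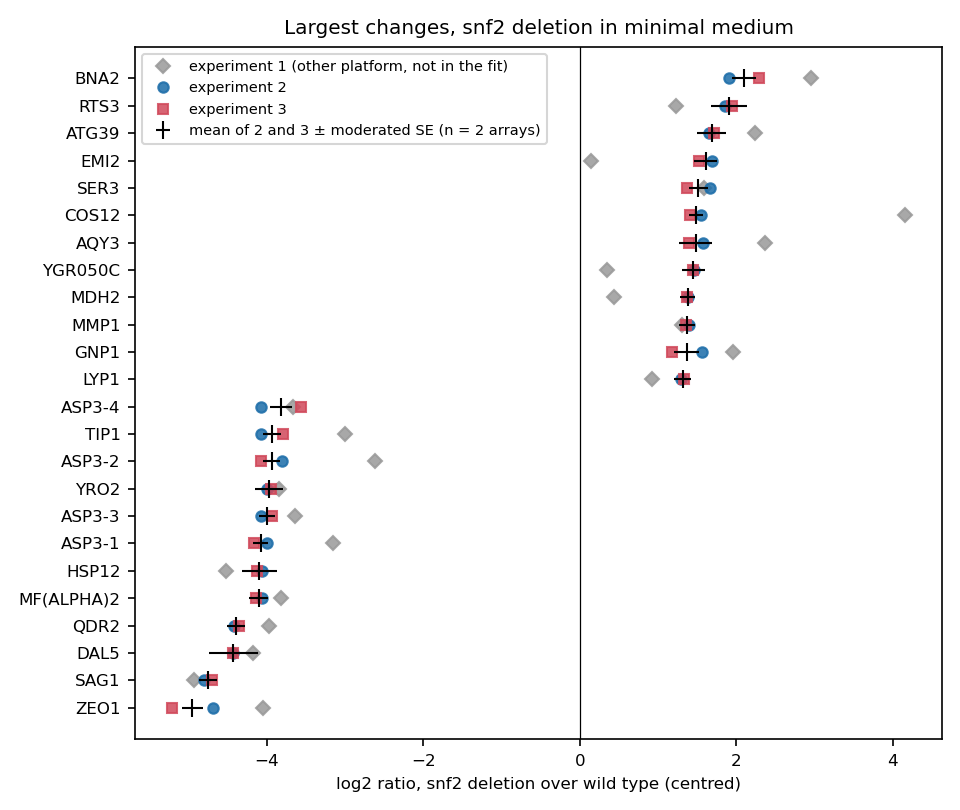
Log2 ratio of snf2 mutant over wild type (x axis) for the 12 largest rises and 12 deepest falls that had the same sign on all 3 arrays (y axis). Symbols are single arrays and black bars the mean of experiments 2 and 3 with its moderated standard error; the rises span 1.31 to 2.10 and the falls -4.95 to -3.82.

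Genes of mating identity split by type. Haploid alpha cells express alpha-specific genes, and a cells express a-specific genes. All 4 alpha-specific genes fell, and did so without either array: SAG1, MF(ALPHA)2, STE3 and MF(ALPHA)1. STE3, the receptor for a-factor, read -2.87 and -2.71 on experiments 2 and 3, and MF(ALPHA)1, the major alpha-factor gene, read -1.94, -2.19 and -2.13 on experiments 1, 2 and 3. Of 6 a-specific genes tested, 1 was called, STE2 for the alpha-factor receptor at -0.47 ± 0.09, a call lost without experiment 2 (adjusted p = 0.104) or 3 (adjusted p = 0.0589). The others were MFA1 at -0.15, MFA2 at -0.19, STE6 at 0.25, BAR1 at 0.20 and ASG7 at 0.31, and AGA2 was measured on 1 array. The ratios do not show the level in either strain, so whether both strains are of alpha type was not tested. In whole cultures, fewer cells that express a gene and less RNA per cell cannot be told apart. None of 10 meiosis and sporulation genes was called by limma, and 4 had an unadjusted p under 0.05.

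The pheromone pathway, which carries the mating signal from the receptors through a G protein and a kinase cascade to the factor Ste12, was lower at several levels. Of 24 members tested, 16 fell and 1 rose, with a median of -0.90 (12 fell without experiment 2, 12 without experiment 3 and 9 over 12 arrays). AGA1, the wall anchor of a-agglutinin, read -3.74, -3.62 and -3.31. SST2, which switches the G protein off, read -2.68 and -2.91 on experiments 2 and 3. At the G protein, GPA1 for the alpha subunit stood at -1.35 and STE4 for the beta subunit at -0.70, while STE18 for the gamma subunit stood at -0.02. Further down, the kinase FUS3 stood at -1.51, the cell-cycle inhibitor FAR1 at -1.57, the karyogamy regulator KAR4 at -1.41 and STE12 at -0.42. Genes that act late in cell fusion were lower too, with PRM1 at -2.11, PRM2 at -1.12, FIG2 at -0.97, FUS1 at -0.97 and FUS2 at -0.84. FIG1 at -2.47 lost its call without experiment 2 (adjusted p = 0.0560) or 3 (adjusted p = 0.0541). PRM7 was the 1 rise, at 0.59, and read -0.15 on experiment 1.

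Mother and daughter yeast cells part by digesting the septum between them, and the genes for this are switched on at the end of mitosis. Of 19 such M/G1 and daughter-cell genes, 15 fell and none rose, with a median of -1.10 on the tested arrays and -1.07 on experiment 1, where 19 of 20 lay below 0. Without experiment 2 the count was 14, without experiment 3 it was 15, and over 12 arrays it was 11. DSE1 read -2.07, -2.60 and -2.26, and DSE2 read -1.53, -1.81 and -1.66, both daughter-specific wall-degrading or wall-linked genes. SCW11, a glucanase-like wall protein, read -1.66, -2.30 and -1.64. The chitinase CTS1 stood at -1.05 and the septum gene EGT2 at -1.56. Regulators of this stage were lower as well, with ASH1, the daughter-cell repressor of HO, at -1.22 and the mitotic exit antagonist AMN1 at -1.27. PRY3, SIC1, DSE4 and CDC6 were not called, with means between -0.41 and -0.08.

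Genes of earlier cell-cycle phases were called in part. Of 14 genes of the CLB2 cluster, which peak before mitosis, 5 fell (35.7%) and none rose, and the median was -0.19. The mitotic cyclin CLB1 stood out at -2.77, -2.72 and -2.53 on experiments 1, 2 and 3 (-2.62 ± 0.10, adjusted p = 1.82e-05). Its sister cyclin CLB2 stood at -0.36 ± 0.09. CLB1 was the 1 call of the cluster that was left without experiment 2, without experiment 3 or over 12 arrays. Of 18 G1/S genes, 4 fell (22.2%) and 2 rose (11.1%), none over 12 arrays, and the falls, CLN2, RNR1, CLN1 and CLB5 between -0.62 and -0.44, each lost their call without experiment 2, and all but RNR1 without experiment 3.

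Histone genes, the substrate of the complex, were lower as a group. Of 10 genes for core, variant and linker histones, 7 fell and none rose, with a median of -0.72 (6 without experiment 2, 7 without experiment 3, 4 over 12 arrays). All 10 read below 0 on experiment 1. HTA2, for H2A, read -0.63, -1.04 and -0.84, and HTA1, the other H2A gene, read -0.74, -0.77 and -0.84. HHT1, for H3, read -0.37, -0.77 and -0.89. The 3 genes not called were the H2A variant HTZ1 at 0.08, the linker histone HHO1 at 0.12 and HHF2, an H4 gene, at -0.51. The gene pairs for each core histone are near-identical, so their probes may share signal.

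Genes for the ribosome were lower almost throughout. Of 77 large-subunit proteins 71 fell, and of 54 small-subunit proteins 46 fell, with medians of -0.67 and -0.68 and no rise. On experiment 1 they lay below 0 for 68 of 69 and 48 of 48 genes. The shift was modest for each gene, and 2 and 5 members fell by 2-fold or more. RPL42B read -1.04, -1.16 and -1.14, RPS20 read -0.97, -1.05 and -1.12, and RPS30A read -1.15 and -1.53 on experiments 2 and 3. The counts shrink with fewer arrays, to 53 and 39 without experiment 2 and 40 and 30 without experiment 3, and over 12 arrays they were 37 and 28. Many of these proteins come from near-identical gene pairs, such as RPL42A and RPL42B, whose probes may share signal.

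Among genes that build and serve the cytoplasmic ribosome, calls were for falls. Of 57 ribosome biogenesis factors 40 fell and none rose, at a median of -0.55 (28 without experiment 2, 21 without experiment 3, 7 over 12 arrays). NOP7, of the large-subunit assembly pathway, read -0.87, -0.91 and -1.22, and NHP2, a protein of the particles that guide pseudouridylation of rRNA, read -0.82, -1.83 and -1.51. Of 24 subunits of RNA polymerases I and III, which make rRNA and tRNA, 13 fell (6 without either array, 2 over 12 arrays), with RPA135, the second-largest subunit of polymerase I, at -0.63 ± 0.09. Of 32 translation factors 14 fell, a count that was 7 without experiment 2, 1 without experiment 3 and 0 over 12 arrays. Of 18 aminoacyl-tRNA synthetases 6 fell, 3 without experiment 2, 1 without experiment 3 and 0 over 12 arrays. Of 68 mitochondrial ribosomal proteins 11 fell, which is 16.2% beside 16.4% of all genes, and 1 rose, with a median of -0.15 (3 lower without experiment 2, none without experiment 3 or over 12 arrays).

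**Figure D3:**
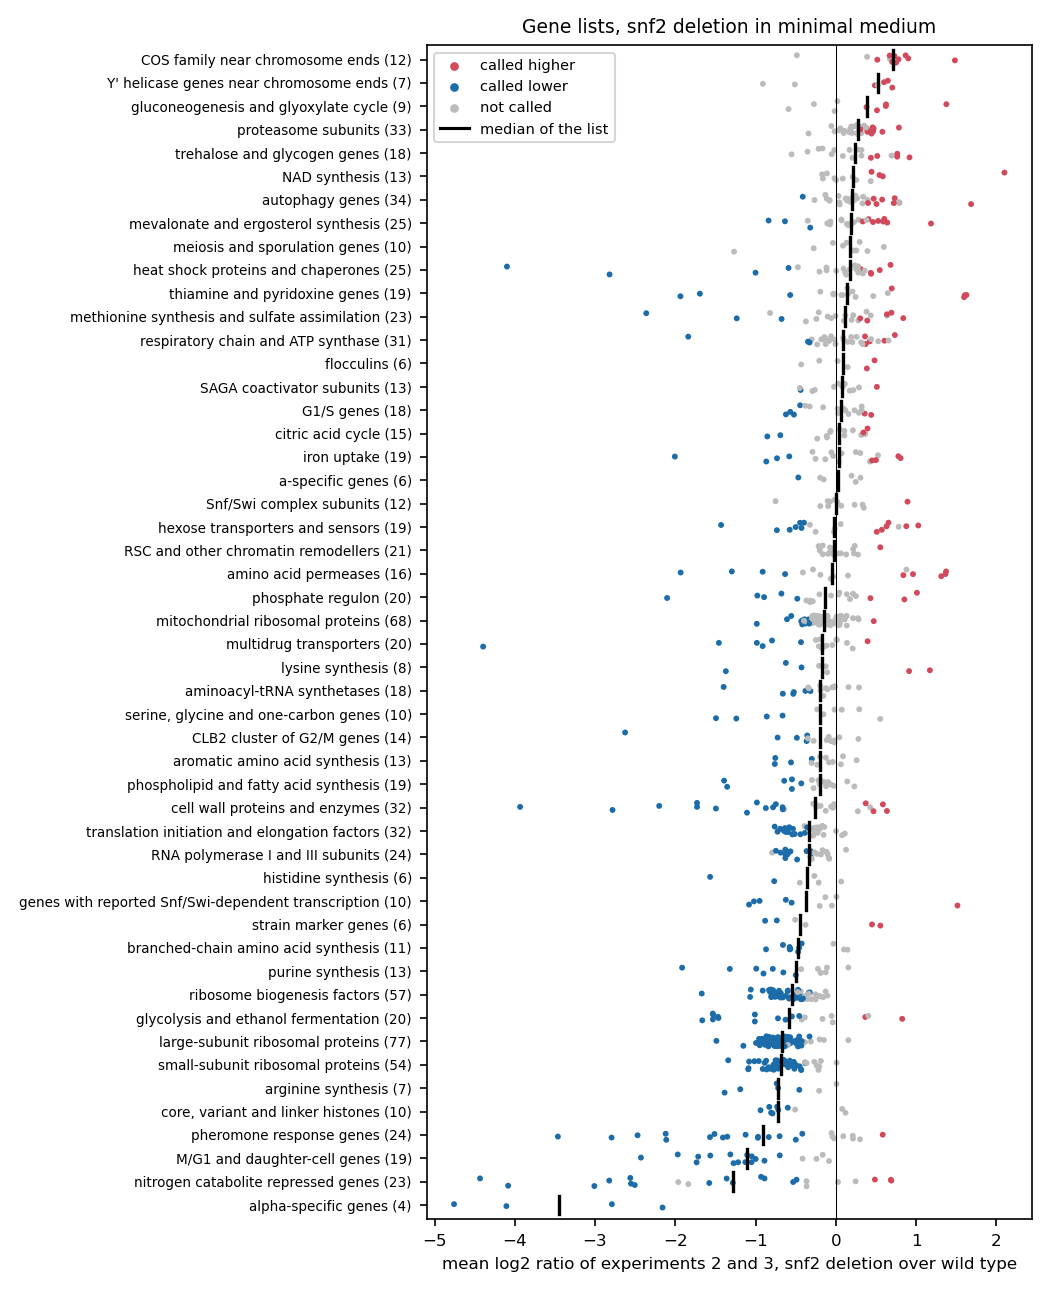
Mean log2 ratio of experiments 2 and 3 (x axis, snf2 mutant over wild type) for the tested members of 50 gene lists (y axis, number tested in brackets), ordered by list median, with each point a gene and black bars the medians. Lists near the bottom, alpha-specific, nitrogen catabolite repressed, daughter-cell, pheromone, histone and ribosomal protein genes, hold mostly called falls (blue), and the COS family at the top holds mostly called rises (red).

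In central carbon metabolism most genes for the later steps of glycolysis fell. Of 20 genes of glycolysis and fermentation 12 fell and 2 rose, with a median of -0.59 (11 lower without experiment 2, 10 without experiment 3, 7 over 12 arrays). The glyceraldehyde-phosphate dehydrogenase genes TDH1, TDH2 and TDH3 stood at -1.66 ± 0.15, -1.53 ± 0.10 and -1.53 ± 0.11, and their sequences are close enough for probes to share signal. GPM1, phosphoglycerate mutase, read -1.30, -1.53 and -1.53. The enolases ENO1 and ENO2 stood at -1.46 and -1.47, pyruvate kinase CDC19 at -1.01 and the fermentative alcohol dehydrogenase ADH1 at -1.01. PGK1, phosphoglycerate kinase, was the later step that was not called, at -0.05. At the upper steps, PFK1 and PFK2, the phosphofructokinase subunits, stood at -0.04 and -0.16 and were not called. The sugar kinases GLK1 and HXK1 were called higher, at 0.83 and 0.37, and HXK2 stood at 0.41 and was not called. GLK1 and HXK1 both read below 0 on experiment 1 (-0.47 and -1.30).

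Hexose transporters were split, with 6 of 19 higher and 7 lower. HXT1, the low-affinity glucose carrier, read -2.03, -1.31 and -1.55, and HXT3, another low-affinity carrier, read -1.72, -0.67 and -0.80. HXT2, a high-affinity carrier, read 1.37 and 0.68 on experiments 2 and 3 but -1.21 on experiment 1. On experiment 1 the list median was -1.30, with 12 of 16 below 0, against -0.02 over the tested arrays. Without experiment 2 there were 2 calls in each direction and without experiment 3 there were 3, and over 12 arrays none was higher and 5 were lower. HXT6 and HXT7 are near-identical, as are several other members, so calls within the family are uncertain.

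Of 9 genes of gluconeogenesis and the glyoxylate cycle 5 rose and none fell, with MDH2 in front. The count was 2 without experiment 2, 1 without experiment 3 and 1 over 12 arrays, and PCK1, the enzyme that commits carbon to gluconeogenesis, stood at 0.02. The citric acid cycle had 2 genes higher and 2 lower of 15 (13.3% each, near the shares of all genes), with aconitase ACO1 at -0.85 ± 0.14, a call lost without experiment 3 (adjusted p = 0.0564). Of 31 genes of the respiratory chain and ATP synthase 5 rose (16.1%) and 3 fell (9.68%), at a median of 0.09, yet on experiment 1 the median was -0.48 and 29 of 30 lay below 0. Without experiment 2 none of these genes was called higher and 1 was called lower, without experiment 3 the counts were 1 and 0, and over 12 arrays none was called. Of 18 trehalose and glycogen genes 5 rose (2 without experiment 2, 3 without experiment 3, 1 over 12 arrays), again with a median below 0 on experiment 1 (-0.74, against 0.24 over the tested arrays). TSL1, a trehalose synthase subunit, read 0.81 and 1.02 on experiments 2 and 3 but -0.59 on experiment 1, while NTH2, a trehalase, read 0.82, 0.79 and 0.74. Experiment 1 also differs from the others in its platform, whose part in this was not tested.

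Genes for poor nitrogen sources, which yeast keeps silent while ammonium or glutamine is at hand, were among the most changed. Of 23 such nitrogen catabolite repressed genes 14 fell, 10 of them by 2-fold or more, and 3 rose, with a median of -1.28 (13 lower without experiment 2, 12 without experiment 3, 5 over 12 arrays). The allantoin route was lower along most of its length: beside DAL5, the urea permease DUR3 stood at -2.55, malate synthase DAL7 at -2.50, allantoicase DAL2 at -1.28, allantoinase DAL1 at -0.89 and DAL3 at -0.53, while DAL4, the allantoin permease, stood at 0.03. PUT1, proline oxidase, read -2.85, -3.09 and -2.93. CPS1, a vacuolar carboxypeptidase, stood at -2.56 and GAP1, the general amino acid permease, at -1.58. The activator GAT1 stood at -0.93 and the repressor DAL80 at -1.96, and DAL80 was not called. UGA4, the GABA permease, read -2.40 and -3.24 on experiments 2 and 3 but 0.18 on experiment 1. The ammonium permeases diverged. MEP1 and MEP3 rose, at 0.69 each, and MEP2 stood at -1.84 ± 0.58 and was not called (adjusted p = 0.0506). That error is pooled over all groups in the fit, and the rich-medium arrays lay far apart for MEP2.

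Amino acid permeases outside that group went both ways, with 5 of 16 higher and 4 lower (5 and 2 without experiment 2, 5 and 3 without experiment 3, 2 and 1 over 12 arrays). The permease shares were 31.2% higher and 25% lower, set beside 12.8% and 16.4% of all genes. MMP1, GNP1 and LYP1 were the large rises. DIP5, the permease for glutamate and aspartate, read -2.88, -1.73 and -2.14, low on every array.

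Amino acid synthesis was lower or not called in most routes on the tested arrays. Experiment 1 was mixed: 11 of 14 aromatic, 6 of 8 lysine and 3 of 6 arginine genes lay above 0 there. So did 2 of 6 histidine and 4 of 11 branched-chain genes. Of 7 arginine genes 5 fell, and ARG1, argininosuccinate synthase, read -1.04, -1.48 and -1.29, with 4 falls left without experiment 2, 3 without experiment 3 and 1 over 12 arrays. Of 6 histidine genes 2 fell with either array alone, HIS4, which carries several steps in 1 protein, at -1.57 ± 0.11 and HIS1 at -0.77 ± 0.09. Lysine synthesis was split by step. LYS20 and LYS21, the homocitrate synthases that open the route, rose, reading 1.39, 1.16 and 1.19 for LYS20 and 1.53, 0.93 and 0.90 for LYS21 on experiments 1, 2 and 3. LYS9, a late step, was lower and read -0.53, -1.25 and -1.49. Of 11 branched-chain genes 8 fell, but 3 without experiment 2, 1 without experiment 3 and 0 over 12 arrays, with ILV3, dihydroxyacid dehydratase, at -0.87 ± 0.11. Of 13 aromatic genes 4 fell (2 without experiment 2, 3 without experiment 3, 0 over 12 arrays), and ARO10, which decarboxylates phenylpyruvate, stood at -0.76 ± 0.11 while it read 0.13 on experiment 1.

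Sulfur and one-carbon metabolism held strong single changes. Of 23 genes of methionine synthesis and sulfate assimilation 5 rose and 3 fell (1 and 2 without experiment 2, 4 and 3 without experiment 3, 0 and 2 over 12 arrays). The methionine and sulfate shares, 21.7% higher and 13% lower, stand beside 12.8% and 16.4% of all genes. SUL1, the high-affinity sulfate permease, read -1.97, -2.08 and -2.65, and SAM1, an S-adenosylmethionine synthetase, read -0.61, -1.14 and -1.32. MET17, which fixes sulfide into homocysteine, went the other way at 0.67, 0.76 and 0.63, and its reading frame overlaps YLR302C. Of 10 serine, glycine and one-carbon genes 4 fell, and GCV1, of the glycine cleavage system, read -1.93, -1.57 and -1.41. Without experiment 2 that count was 2, and over 12 arrays it was 1. None of the 10 rose, while SER3, which is listed with the Snf/Swi-dependent genes, did. Of 13 purine synthesis genes 7 fell (5 without either array, 4 over 12 arrays) and none rose. AAH1, adenine deaminase, read -1.30, -1.96 and -1.87, and ADE17, of the last steps to IMP, read -1.27 and -1.37 on experiments 2 and 3.

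In the phosphate regulon, 3 of 20 genes rose and 5 fell (2 and 2 without experiment 2, 3 and 3 without experiment 3, 0 and 1 over 12 arrays). These calls are 15% higher and 25% lower, set beside 12.8% and 16.4% of all genes. PHM8, a phosphatase induced when phosphate is short, read -2.72, -2.03 and -2.18. PHO84 and PHO5 are counted with the Snf/Swi-dependent genes and not among these 20. PHO84, the high-affinity phosphate transporter, read -2.65, -0.97 and -0.93. GIT1, a transporter of glycerophosphoinositol, read 0.91 and 1.11. Acid phosphatase PHO5, a textbook case of nucleosome removal, stood at -0.55 ± 0.12 and lost its call without experiment 2 (adjusted p = 0.124) or 3 (adjusted p = 0.0600).

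Cofactor genes gave a few large values. Of 13 NAD synthesis genes 4 rose and none fell, with BNA2 far ahead of the next, BNA4, kynurenine monooxygenase, at 0.59 ± 0.09 (2 without experiment 2, 1 without experiment 3, 2 over 12 arrays). Of 19 thiamine and pyridoxine genes 4 rose and 3 fell (2 and 2 without experiment 2, 3 and 2 without experiment 3, none over 12 arrays). The calls of this list are 21.1% higher and 15.8% lower, set beside 12.8% and 16.4% of all genes. THI11, of the family that makes the thiamine pyrimidine, read 1.53 and 1.73 on experiments 2 and 3. THI5, a near-identical copy, read 1.51 and 1.70. The pyridoxine pair SNO2 and SNZ2 stood at -1.94 and -1.69 but read 0.89 and 0.61 on experiment 1, and these genes too have close copies.

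Of 25 genes of the mevalonate and ergosterol route 8 rose and 3 fell (2 and 2 without experiment 2, 3 and 2 without experiment 3, 1 and 1 over 12 arrays). ECM22, an activator of sterol genes, stood at 1.19 ± 0.21 and lost its call without experiment 2 (adjusted p = 0.0715). ERG5, a late desaturase, read -1.30, -0.66 and -0.61. Shares for the mevalonate and ergosterol list were 32% higher and 12% lower, set beside 12.8% and 16.4% of all genes. Of 19 phospholipid and fatty acid genes 6 fell and none rose (1 without experiment 2, 4 without experiment 3, 2 over 12 arrays). CHO2, the first methylation step from phosphatidylethanolamine to phosphatidylcholine, read -1.13, -1.50 and -1.20. INO1, inositol phosphate synthase and a gene known to need Snf/Swi, read -1.58 and -0.58 on experiments 2 and 3 and 0.19 on experiment 1, and its call was lost without experiment 2 (adjusted p = 0.354). Of 19 iron uptake genes 4 rose and 4 fell, 21.1% each, set beside 12.8% higher and 16.4% lower of all genes. FET3, the ferroxidase of high-affinity uptake, read -3.68, -2.34 and -1.67, and FET4, the low-affinity transporter, read 0.63, 0.78 and 0.78. The counts of rises were 3 without experiment 2 and 2 without experiment 3, and none over 12 arrays, and those of falls were 3, 4 and 4.

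Cell wall proteins were lower in part. Of 32 wall proteins and enzymes 13 fell and 4 rose (12 lower without either array, 10 over 12 arrays). The share of wall genes lower was 40.6%, set beside 16.4% of all genes, and the share higher was 12.5%, beside 12.8%. SED1, a major structural protein of the wall, read -2.86, -2.81 and -2.76, and CWP1, a mannoprotein, read -2.40, -2.27 and -2.13. SPI1, a stress-induced wall protein, read -2.44, -1.63 and -1.83. Among enzymes of the wall polymers, the glucan synthase FKS1 at -0.04 and the chitin synthase CHS3 at -0.06 were not called, and the glucanosyltransferases GAS1 and GAS3 fell, at -0.78 and -0.75. The 4 rises, CHS1, DAN4, CRH1 and PAU23, gave way to a count of 0 without experiment 2 and 1 without experiment 3. Of 6 flocculins 2 rose and none fell, and neither call held without experiment 2, without experiment 3 or over 12 arrays. Of 20 multidrug transporters 6 fell and 1 rose (4 lower without experiment 2, 5 without experiment 3, 3 over 12 arrays). After QDR2 came the polyamine exporter TPO1 at -1.46 ± 0.12, low on all 3 arrays.

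Of 25 chaperones and heat shock proteins 5 rose (20%) and 4 fell (16%), at a median of 0.18, with the share lower near the 16.4% of all genes and the share higher set beside 12.8% (2 higher and 3 lower without experiment 2, 2 and 4 without experiment 3, 1 and 3 over 12 arrays). The 4 falls were HSP12, HSP30, HSP26 and SSB2. HSP30 of the plasma membrane read -3.41, -2.74 and -2.90, and HSP26, a small heat shock protein, read -2.88, -1.15 and -0.85. The ribosome-bound chaperone SSB2 stood at -0.59. HSP60, the mitochondrial chaperonin, rose, reading 0.24, 0.80 and 0.57. Proteasome genes were called in 1 direction, with 10 of 33 higher and none lower at a median of 0.27, yet without experiment 2 the count was 1, without experiment 3 it was 3 and over 12 arrays it was 1. On experiment 1 the proteasome list had a median of 0.02, with 13 of 33 genes below 0 and 19 above. RPN4, the transcription factor of proteasome genes, read 0.48, 0.99 and 0.59. Of 34 autophagy genes 8 rose and 1 fell (4 higher without experiment 2, 3 without experiment 3, 1 over 12 arrays), with ATG8, which coats autophagosomes, at 0.72 ± 0.11 and ATG19, a cargo receptor, at 0.79 ± 0.11.

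The share of genes called higher was larger next to chromosome ends. Place was counted in genes from the nearer end, in the gene order of the reference annotation of assembly R64. Among the 138 tested genes in places 1 to 5, 60 were called higher (43.5%) and 13 lower (9.42%), with a median of 0.42, and on experiment 1 75% of them lay above 0. In places 6 to 10 the share higher was 27.1% of 140 genes, and beyond place 40 it was 11.3% of 4157. The COS family, membrane protein genes that sit near the ends, had 9 of 12 members higher and none lower at a median of 0.72 (6 without experiment 2, 7 without experiment 3, 3 over 12 arrays). COS8 read 0.69, 0.96 and 0.85 and COS2 read 0.62, 0.98 and 0.77. Of 7 helicase genes of the Y' elements at the very ends 4 rose (4 without experiment 2, 2 without experiment 3, 1 over 12 arrays), with YRF1-5 at 1.18, 0.66 and 0.64. On experiment 1, 4 of the 7 Y' genes lay above 0 and 3 below, and their lowest mean on the tested arrays was -0.91, not called. Members of both families are near-identical and may share signal, so they are not independent. Without them, 49 of 121 genes in places 1 to 5 were still higher (40.5%). Both shares were smaller without experiment 2, at 22.5% in places 1 to 5 against 3.34% beyond place 40, and without experiment 3, at 19.6% against 4.07%. Over 12 arrays they were 10.9% and 1.27%. The difference between places was not tested. Medians of whole chromosomes ran from -0.08 on chromosome II to 0.11 on chromosome VI on the tested arrays, and from -0.11 on chromosome XVI to 0.33 on chromosome I on experiment 1.

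**Figure D4:**
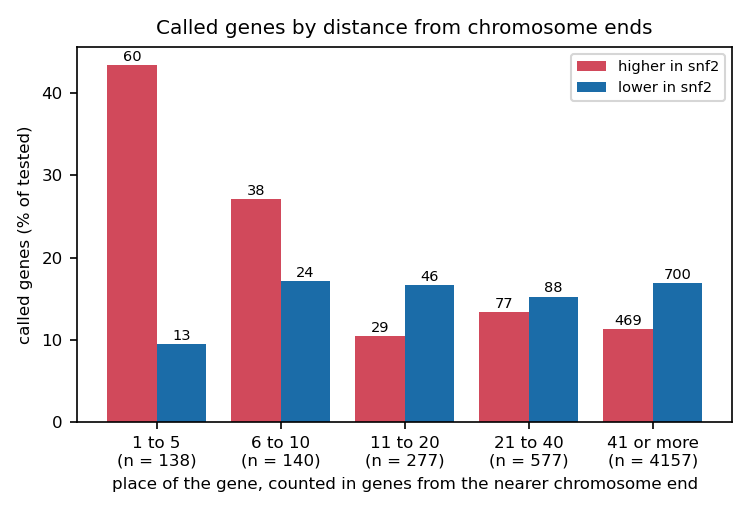
Share of tested genes called higher (red) and lower (blue) in the snf2 mutant, in percent on the y axis, by place in genes from the nearer chromosome end (x axis, with the number tested); numbers above bars count called genes. The share higher is 43.5% in places 1 to 5, 27.1% in places 6 to 10 and between 10.5% and 13.3% further in.

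The complex's own genes and its relatives were mostly not called. Of 12 subunit genes of Snf/Swi, SNF2 was the 1 called. SNF5 stood at 0.33, SWI3 at -0.19, SNF12 at -0.07, SNF11 at 0.07, SWP82 at 0.02, ARP7 at 0.23 and ARP9 at -0.09. SNF6 at 0.35, TAF14 at -0.02 and RTT102 at -0.10 were likewise not called. SWI1 at -0.75 ± 0.30 was not called (adjusted p = 0.108), and its 2 probes disagreed on experiment 2, at 0.46 and -0.74. Of 21 genes of other remodellers 1 rose, IOC3 of an Isw1 complex at 0.56 ± 0.11, a call lost without experiment 2 (adjusted p = 0.129). Of 13 SAGA subunits, a coactivator that acts beside Snf/Swi, 1 rose and 1 fell, TRA1 at 0.51 and ADA2 at -0.44. The call for TRA1 was lost without experiment 3 and that for ADA2 without either array. The 2 probes of TRA1 disagreed on experiment 2, at 0.68 and -0.23, and only the first had a value on experiment 3, at 0.80.

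Among genes with reported Snf/Swi-dependent transcription, 5 of 10 tested fell and 1, SER3, rose (2 lower without experiment 2, 4 without experiment 3, 1 over 12 arrays). ADH2, the alcohol dehydrogenase used for growth on ethanol, read -1.02, -0.99 and -1.05, the steadiest of them. RNR3, a ribonucleotide reductase gene, stood at -0.62 ± 0.14, lost without either array. HO at -0.05 ± 0.11, SUC2 at -0.13 ± 0.10, PHO8 at -0.20 ± 0.21 and GAL10 at 0.01 ± 0.19 were not called, and GAL1 was measured on 1 array. Genes often used as strain markers were URA3 at -0.88 ± 0.10, HIS3 at -0.73 ± 0.11, LEU2 at -0.51 ± 0.18, ADE2 at -0.38 ± 0.13, LYS2 at 0.45 ± 0.10 and TRP1 at 0.56 ± 0.11. LEU2 and ADE2 were not called, and over 12 arrays limma called none of these marker genes (URA3 at adjusted p = 0.279). URA3 read -1.15, -0.84 and -0.92 on experiments 1, 2 and 3. It read 1.25 on experiment 1 of the snf2 mutant in rich medium, which that fit also holds.

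The swi1 mutant in minimal medium was set beside the snf2 mutant to ask whether the ATPase and the other subunit give different profiles. No gene of 5123 differed between them at an adjusted p under 0.05 in limma (smallest 0.538), and 280 genes (5.47%) had an unadjusted p under 0.05. The typical standard error of a gene's difference was 0.16, so small differences were not detectable with 2 arrays each. Against wild type, 1550 of 5307 genes were called for snf2 and 1526 of 5354 for swi1 (28.5%, with 13.7% higher and 14.8% lower). For the 12 largest rises given above, the difference of snf2 minus swi1 ran from -0.33 for COS12 to 0.64 for MDH2, and for the 12 deepest falls it ran from -0.58 for MF(ALPHA)2 to 0.35 for HSP12. These genes were chosen by their snf2 values. ZEO1 stood at -4.95 in snf2 and -4.95 in swi1 and BNA2 at 2.10 and 2.37. Of the 24, 4 had an unadjusted p under 0.05, and none was called: MDH2 stood at 1.38 in snf2 and 0.74 in swi1, SAG1 at -4.76 and -4.20, MF(ALPHA)2 at -4.10 and -3.52, and COS12 at 1.49 and 1.82. Of the daughter-cell genes 15 of 19 were lower in snf2 and 16 of 20 in swi1, and 9 of 12 COS genes were higher in both. All these comparisons use FY2 as the other channel, and whether its RNA was shared between arrays is not given. Without snf2 experiment 3 the difference called 18 genes, and without swi1 experiment 2 it called 1.

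The same mutant in rich medium was compared to see whether the effect of the deletion depends on the medium. Of 3559 genes measured on all 4 arrays, 178 (5%) had an effect that differed, 46 more positive in minimal medium (1.29%) and 132 more negative (3.71%). The count was 79 without minimal experiment 2 and 108 without minimal experiment 3. On rich experiment 3, 5299 of 8832 probes had a value, so some of the genes named above had no rich-medium mean.

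Several genes of amino acid synthesis were lower or less high in the mutant in minimal medium than in rich medium. ARG1 read -1.48 and -1.29 in minimal medium, against a mean of 1.90 in rich medium, a difference of -3.28 (adjusted p = 3.44e-05). Of 6 arginine genes tested 5 differed in this direction, with list medians of -0.72 over 7 genes in minimal and 1.32 over 6 genes in rich medium. Of 19 methionine and sulfate genes 11 differed so and 1 the other way, and MET17, high in both media, stood at 0.69 in minimal and 3.79 in rich medium. HIS5 at -0.45 and 2.68 and MEP2 at -1.84 and 2.08 differed too, though the rich arrays disagreed with each other by over 2 log2 units for both. DIP5 was lower in minimal medium, at -1.93, and higher in rich medium, at 1.06. SER3 was higher in both, at 1.52 in minimal and 3.79 in rich medium.

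Phosphate genes showed the opposite difference. PHO84 stood at -0.95 in minimal and -3.80 in rich medium, PHO5 at -0.55 and -2.78, and PHO3 at -0.31 and -2.58. Of 13 tested genes of the phosphate list, which holds PHO3 but not PHO84 and PHO5, 6 differed in this direction and none in the other. YHB1, the flavohemoglobin that detoxifies nitric oxide, stood at -0.81 in minimal and -4.06 in rich medium. ARO9, an aromatic aminotransferase, stood at -0.20 and -3.07. TAT1, a permease for tyrosine and tryptophan, stood at 0.88 in minimal and -3.95 in rich medium, with the rich arrays far apart. The 3 alpha-specific genes with a rich-medium value and ZEO1 were lower in both media and lower still in minimal medium, with SAG1 at -4.76 and -3.19 and STE3 at -2.79 and -1.66. EEB1, an ethyl ester synthase, and YIL165C, a nitrilase-related reading frame, were lower in minimal medium, at -3.08 and -2.68, but not in rich medium, at -0.04 and 0.74. The cell wall gene SED1 gave -2.78 in minimal and -2.83 in rich medium, and YRO2 gave -3.97 and -3.88, both with no difference called. Ribosomal protein genes gave no called difference, by limma in 58 large-subunit and 43 small-subunit genes tested, of which 4 and 2 had an unadjusted p under 0.05.

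**Figure D5:**
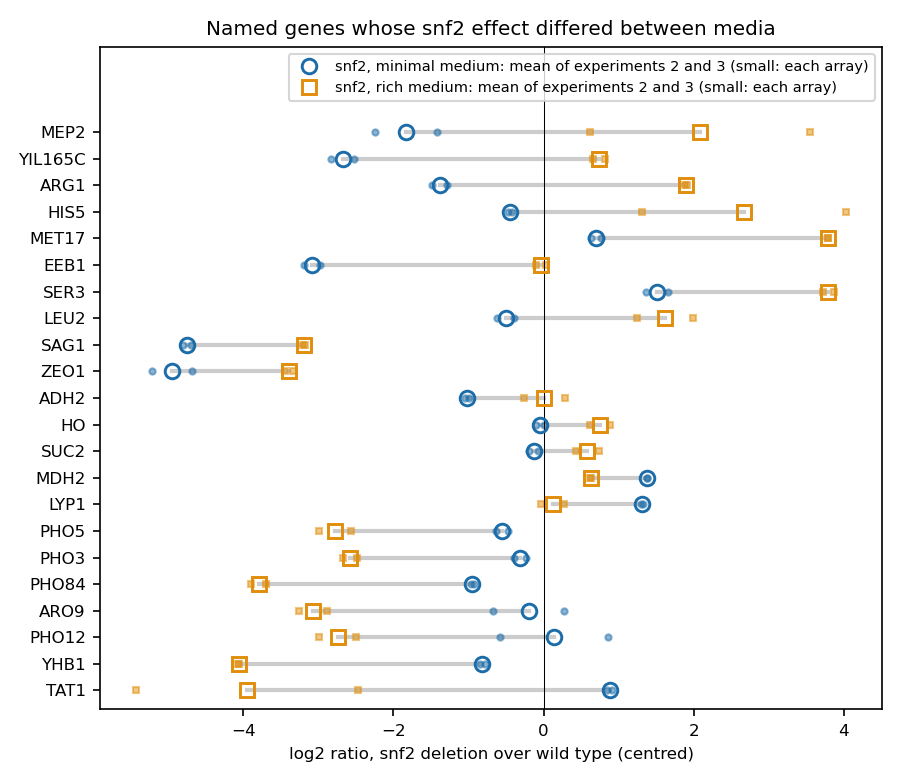
Log2 ratio of snf2 mutant over wild type (x axis) in minimal medium (blue circles) and rich medium (orange squares) for named genes whose effect differed between media (y axis: the top rises and falls, the Snf/Swi-dependent genes, the markers and the widest differences); large symbols are means of experiments 2 and 3 and small ones single arrays. Genes at the top, such as ARG1 and YIL165C, are lower in minimal and higher in rich medium, and those at the bottom, such as YHB1 and PHO84, are far lower in rich medium.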

How the data were processed

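Each sample is 1 two-channel array of total RNA. The authors deposited 1 log2 ratio per probe and array, read with ScanAlyze (version 2.24 on experiments 2 and 3, unknown on experiment 1, per the labels). Any normalisation, and signal over background, are not given in the sources used here. Base 2 was inferred from the excess of matches over a displaced grid on experiments 2 and 3. There 14.1% and 15.4% of values match log2(a/b) for integers a and b of at most 20, set beside 6.98% and 6.52% displaced. Base 10 matched more values, 16.7% and 17.9%, but its displaced grid matched 14.9% on both. Natural logs matched 9.56% and 10.3%, set beside 8.78% and 9.06% displaced. Base 2 was taken over for experiment 1, where the excess was small (6.69% and 6.28%).

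The sign was turned to mutant over wild type. Probes with 1 gene in the platform annotation were kept (6956 of 8832, and 5516 of 6384 for experiment 1). Spots of a gene were averaged and each array was centred on its median gene, which shifted values by 0.078, 0.0605 and 0.0725. limma 3.58.1 (R 4.3.3) was fitted to 8 arrays, experiments 2 and 3 of the 4 groups, with 1 mean per group, tested two-sided with Benjamini-Hochberg adjustment and checked on simulated data. Errors are moderated standard errors. "Over 12 arrays" means a fit with experiment 1 of all 4 groups added and platform as a random block (correlation 0.49). No deposited column was left out (0 unused).

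Members and the 50 lists were chosen with earlier results of these data known. Named genes are the 12 largest changes each way with 1 sign on 3 arrays, Snf/Swi subunits, reported dependent genes, strain markers, up to 4 called members per list, 6 per direction in each difference, and mating-type and meiosis genes. Genes named beyond it are other members of these lists, chosen after their values were seen. Sequences, and the promoter part of the rule, were not used here. The experiment numbers were not used as pairs, since replicate differences correlated at -0.03 to 0.02 between groups.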

Additional observations from a re-analysis of the deposited data

Results flagged for a closer look

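For 51 named genes, the effect of the snf2 deletion differed between minimal and rich medium by limma's test of the difference itself (adjusted p from 2.13e-05 to 0.0485, 2 arrays per medium). Differences are minimal minus rich, on the log2 scale. Those more negative in minimal medium by at least 4-fold were MEP2 (-3.92), YIL165C (-3.42), ARG1 (-3.28), HIS5 (-3.13), MET17 (-3.10), EEB1 (-3.05), DIP5 (-3.00), HSP30 (-2.71), ARG4 (-2.70), SUL1 (-2.61), OPI3 (-2.38), SER3 (-2.28) and LEU2 (-2.13). Between 2-fold and 4-fold more negative were MF(ALPHA)1 (-1.63), SAG1 (-1.56), ZEO1 (-1.56), TDH1 (-1.26), GCV1 (-1.23), TSL1 (-1.17), SPI1 (-1.17), ACO1 (-1.14), STE3 (-1.13), TDH3 (-1.12), ILV3 (-1.06) and ADH2 (-1.03). Smaller negative differences were those of TPO2 (-0.85), TDH2 (-0.83), HO (-0.80), TPO4 (-0.78), SAM1 (-0.76), ARG8 (-0.74), LSC2 (-0.73), HIS4 (-0.73), SST2 (-0.72), DSE2 (-0.71), SUC2 (-0.71) and STE2 (-0.64). More positive in minimal medium were TAT1 (4.84), YHB1 (3.25), PHO12 (2.88), ARO9 (2.88), PHO84 (2.85), PHO3 (2.27), PHO5 (2.23), SPL2 (1.72), LYS20 (1.58), LYP1 (1.19), LYS21 (0.80), MDH2 (0.75), ARO10 (0.73) and ERG5 (0.73). LEU2, a common strain marker, stood at -0.51 in minimal and 1.62 in rich medium. HO stood at -0.05 in minimal and 0.75 in rich medium, and SUC2 at -0.13 and 0.58, so neither was called lower in either medium. PHO12 read 0.86 and -0.58 on the minimal arrays, so its minimal value has no settled sign.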

How the results depend on the processing

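With 2 arrays a group the number of calls depends on each array. Leaving out experiment 2 or 3 of snf2 in minimal medium left 704 to 771 calls against wild type (226 to 250 higher, 454 to 545 lower), 0 to 18 against swi1 and 79 to 108 against rich medium. Same signs on experiment 1 then made up 83.6% to 87.8%. Leaving out a swi1 array gave 0 to 1 calls against swi1, and leaving out a rich array gave 146 to 192 against rich medium. Restricting the fit to genes measured on all 8 arrays, of which fewer were tested (3207), gave 1033 calls, 567 lower and 114 at least 2-fold lower. Adding experiment 1 of all 4 groups, with platform as a random block, gave 351 calls, 88 higher, 263 lower and 28 at least 2-fold higher. That fit turned the sign of MRP8 (-0.17), HXT2 (-0.072), TSL1 (-0.047) and GDB1 (-0.36), each of which reads below 0 on experiment 1. With the experiment number as a replicate block there were 1385 calls, 0 against swi1 and 134 against rich medium, and the pairing itself is not given by the labels. Of 195 named genes called, 118 kept their call without either array and 84 over 12 arrays. Spot brightness is not among the values used, so dim spots could not be set aside.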

Other observations

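Of 1876 probes without a gene name in the platform annotation 1141 were tested in a fit of their own, and limma called 49 higher and 75 lower in the snf2 mutant. That is 10.9% of these probes, set beside 29.2% of the named genes, and the difference between the shares was not tested.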
